A study of Mus musculus with 30 samples.

Results

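The response to HMGB1 is described here for microglia of Protocol 1A, by setting 3 HMGB1 libraries against 3 Control libraries out of the 30 libraries of the series. The libraries were bulk RNA sequencing of C57/B6 mouse brain microglia. Brain cells of neonates at postnatal days 0 to 3 were grown as a mixed glial culture for 10 days in medium with serum and 0.5 ng/ml GM-CSF, a growth factor for myeloid cells. The microglia were then shaken off and plated overnight in serum-free medium, and received either nothing (Control) or HMGB1 for 4 h. Each culture pooled the brains of 5 pups, and the study's replicates came from distinct litters. Both groups had therefore seen GM-CSF, serum and shaking. The sources used here state no HMGB1 concentration for Protocol 1A. Protocol 1B, grown for 10 days without GM-CSF, and Protocol 1C, grown for 21 days with 0.5 ng/ml GM-CSF, are used only to test where the response of 1A differs. Each holds 3 Control and 3 HMGB1 libraries of the same strain and age at isolation.

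HMGB1 is a chromatin protein that acts as an alarm signal once it is outside the cell. Toll-like receptors TLR2 and TLR4, the latter with CD14 and MD-2 (Ly96), and the receptor RAGE (Ager) are known to sense it. The adaptor MyD88 and the IRAK kinases pass the signal of Toll-like receptors to the kinases that free NF-kB from its inhibitors, and a second adaptor, TRIF (Ticam1), leads to interferon beta, which acts through the interferon receptor, JAK kinases and STAT factors. Microglia, the resident macrophages of the brain, are known to make cytokines and chemokines along both routes.

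Total counts ran from 18038316 to 21497681 per Control library and from 16736203 to 22613880 per HMGB1 library. The median absolute difference in log2 CPM between 2 libraries was 0.117 to 0.162 within Control, 0.146 to 0.171 within HMGB1 and 0.497 to 0.538 between the groups. Levels are CPM, counts scaled to the size of the library, with TMM factors that centre the bulk of genes, and are listed for replicates 1, 2 and 3 in that order. A gene is said to rise or fall where its Benjamini-Hochberg adjusted p in the quasi-likelihood test of edgeR was below 0.05. By TMM factor the groups stood apart, at 1.13 to 1.18 in Control and 0.852 to 0.880 with HMGB1. Of 13489 genes tested, 4008 rose (29.7%) and 4258 fell (31.6%), together 61.3%, so that rises made up 48.5% of the calls. With total counts in place of TMM factors 2008 rose and 7747 fell, 20.6% rises, and fold changes moved by a median of -0.42 on the log2 scale. The libraries of the groups did not overlap for 66.9% of genes. Where counts for a list stand in parentheses they come from total counts. Directions below are relative to the bulk of genes in this sense, and small shifts of whole gene lists are given on both scales. Of the fitted changes with adjusted p below 0.05, 92 rises exceeded 5 on the log2 scale against 16 falls, while 839 rises and 1240 falls lay between 1 and 2. The number of genes above 1000 CPM was 65 in Control and 137 with HMGB1, of which 62 were shared.

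General macrophage and microglia genes were high in both groups. The CSF-1 receptor gene Csf1r gave 1074, 1176 and 1231 CPM in the Control libraries and 1418, 1345 and 1442 CPM in the HMGB1 libraries, and Tyrobp, an adaptor of activating receptors, gave 625, 631 and 628 CPM without and 661, 587 and 642 CPM with HMGB1. Genes that set brain microglia apart were low or near absent. P2ry12, a nucleotide receptor of resting microglia, lay at 6.33, 9.65 and 11.7 CPM without and 7.29, 10.3 and 8.99 CPM with HMGB1, Tmem119 at 1.54, 1.21 and 1.18 CPM without and 0.226, 0.503 and 0.632 CPM with HMGB1, and Siglech had between 0 and 5 counts in every library. The labelled cell type thus rested on macrophage genes more than on genes particular to homeostatic microglia. Of the other cell types, the astrocyte gene Gfap had at most 1 count in a library, the endothelial gene Cldn5 at most 3 and the neuronal gene Snap25 at most 1. The summed level of 12 astrocyte markers was 87.3 to 94.8 CPM in Control and 95.0 to 105.1 CPM with HMGB1, most of it from Aldoc and Aldh1l1. Slc1a2, a glutamate transporter on that list, was at 0.0396, 0.0927 and 0.148 CPM without and 7.12, 7.3 and 8.99 CPM with HMGB1 and rose; its part in other results was not tested. The 12 neuron markers summed to between 1.36 and 2.32 CPM and the 12 lymphocyte markers to between 3.51 and 7.04 CPM over all 6 libraries. Oligodendrocyte lineage markers summed to 156.4 to 172.3 CPM in Control and 116.5 to 126.8 CPM with HMGB1, and endothelial markers to 161.6 to 188.3 and 177.3 to 205.2 CPM. Unlike Cldn5, the endothelial marker Vwf had 3453, 2617 and 2768 counts without and 1859, 2035 and 1285 with HMGB1. Kdr, on the same list, had 511, 595 and 671 counts without and 868, 1312 and 1205 with HMGB1. Fibroblast and mural markers summed to 3.94 to 6.55 CPM in Control and 6.25 to 20.2 CPM with HMGB1, the highest value being HMGB1 replicate 1. Neutrophil markers summed to 46.2 to 65.0 and 100.4 to 126.5 CPM, with Mpo, Elane and Ly6g at 0 in every library. Lcn2, on that list, had 8, 3 and 4 counts without and 814, 1026 and 851 with HMGB1. Mmp8 had 1514, 869 and 1055 counts without and 992, 661 and 489 with HMGB1. For S100a8 the counts were 111, 116 and 91 without and 385, 267 and 183 with HMGB1. Monocyte and border macrophage markers summed to 859.8 to 905.9 and 1103 to 1129 CPM. As a mean share of all counts this list went the other way, from 0.102% in Control to 0.0965% with HMGB1. So did the astrocyte list, from 0.0106% to 0.00865%, and the endothelial list, from 0.0199% to 0.0167%. By mean share too, the neutrophil and fibroblast lists were higher with HMGB1 and the oligodendrocyte list lower. The part of these lists in the results was not tested. In such bulk libraries, fewer cells of a type and less RNA per cell cannot be told apart.

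The 10 largest rises among protein-coding genes were mostly secreted proteins. Ereg, a ligand of the EGF receptor family, had 0 counts in each Control library and lay at 46.1, 43.1 and 35.8 CPM in the HMGB1 libraries, at least 932.5-fold above the level of 3 counts over the Control group. Il6, which encodes interleukin-6, was measured at 0, 0.139 and 0 CPM in the Control libraries and 104, 145 and 107 CPM in the HMGB1 libraries (log2 fold change 11.19 ± 0.41 SE, adjusted p = 2.16e-06). Csf3, the gene for the neutrophil growth factor G-CSF, went from 0.119, 0 and 0.0985 to 98.5, 127 and 99.5 CPM (10.39 ± 0.261 on the log2 scale, adjusted p = 5.42e-10). Edn1, encoding the vasoconstrictor endothelin-1, reached 63.7, 90.4 and 82.1 CPM from at most 0.246 CPM. The pentraxin Ptx3, a soluble pattern recognition protein, rose to 22.8, 26.2 and 24.6 CPM from at most 0.0927 CPM. Among these genes the groups were wide apart and did not overlap. One of the 10 encodes no secreted protein, the gene of the activation antigen Cd69, at 0.871, 2.09 and 3.69 CPM without and 597, 986 and 935 CPM with HMGB1. Control replicate 1 was the lowest of the Control libraries for Cd69 and Cxcl10, and replicate 3 the highest.

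**Figure D1:**
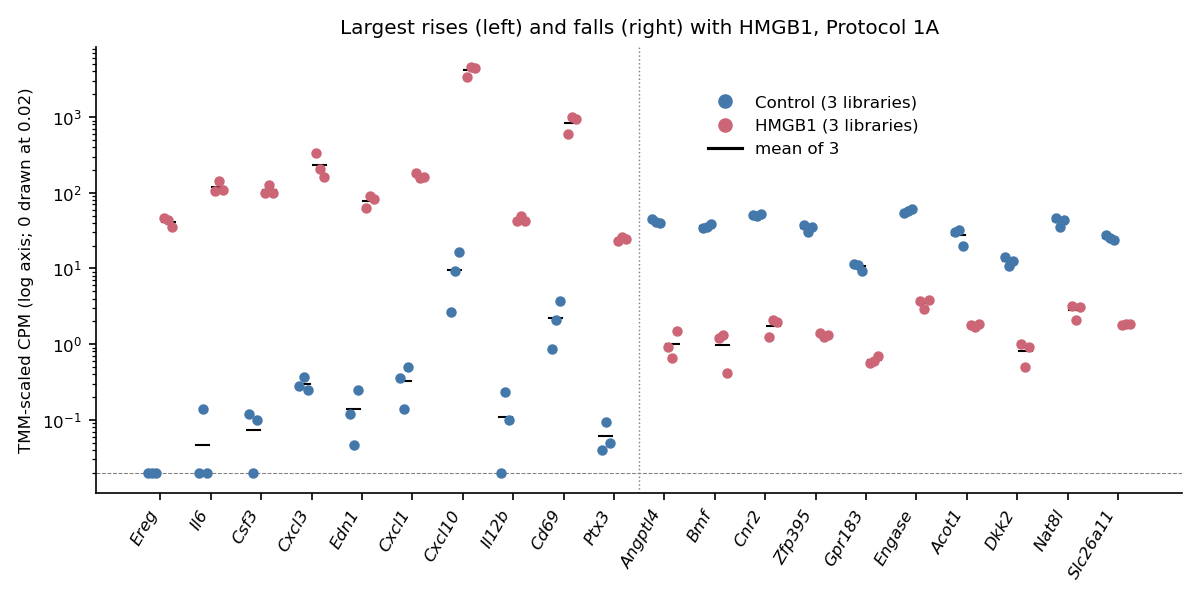
TMM-scaled CPM (log axis, values of 0 drawn at 0.02) of the 10 protein-coding genes with the largest rises and the 10 with the largest falls; points are the 3 Control (blue) and 3 HMGB1 (red) libraries and bars their means. Ereg has 0 counts in all 3 Control libraries, Cxcl10 reaches 3377, 4544 and 4503 CPM with HMGB1, and Cnr2 falls from 50.9, 48.6 and 52.3 to 1.24, 2.06 and 1.97 CPM.

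The largest falls were in genes of enzymes, receptors and regulators. Angptl4, a secreted inhibitor of lipoprotein lipase, gave 44.4, 41.6 and 39.3 CPM in the Control libraries and 0.905, 0.654 and 1.47 CPM in the HMGB1 libraries (log2 fold change -5.42 ± 0.177 SE, adjusted p = 1.05e-11). Zfp395, a zinc finger gene, fell to 1.41, 1.26 and 1.33 CPM from 37.1, 30 and 35 CPM. Acot1 and Nat8l, enzymes that handle acyl-CoA and N-acetylaspartate, had log2 fold changes of -3.97 and -3.92. Engase, a cytosolic enzyme that trims glycans, went from 54, 56.7 and 60.2 to 3.73, 2.92 and 3.86 CPM. Gpr183, the receptor for oxysterols made from 25-hydroxycholesterol, went from 11.6, 11.3 and 9.31 to 0.565, 0.604 and 0.702 CPM. In the same cells Ch25h, the enzyme that makes 25-hydroxycholesterol, was at 5.26, 7.47 and 14.1 CPM without and 315, 452 and 475 CPM with HMGB1 (log2 fold change 5.54 ± 0.48 SE, adjusted p = 7.01e-04). The WNT antagonist gene Dkk2 fell from 14, 10.6 and 12.6 CPM to at most 1.02 CPM in the HMGB1 libraries.

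**Figure D2:**
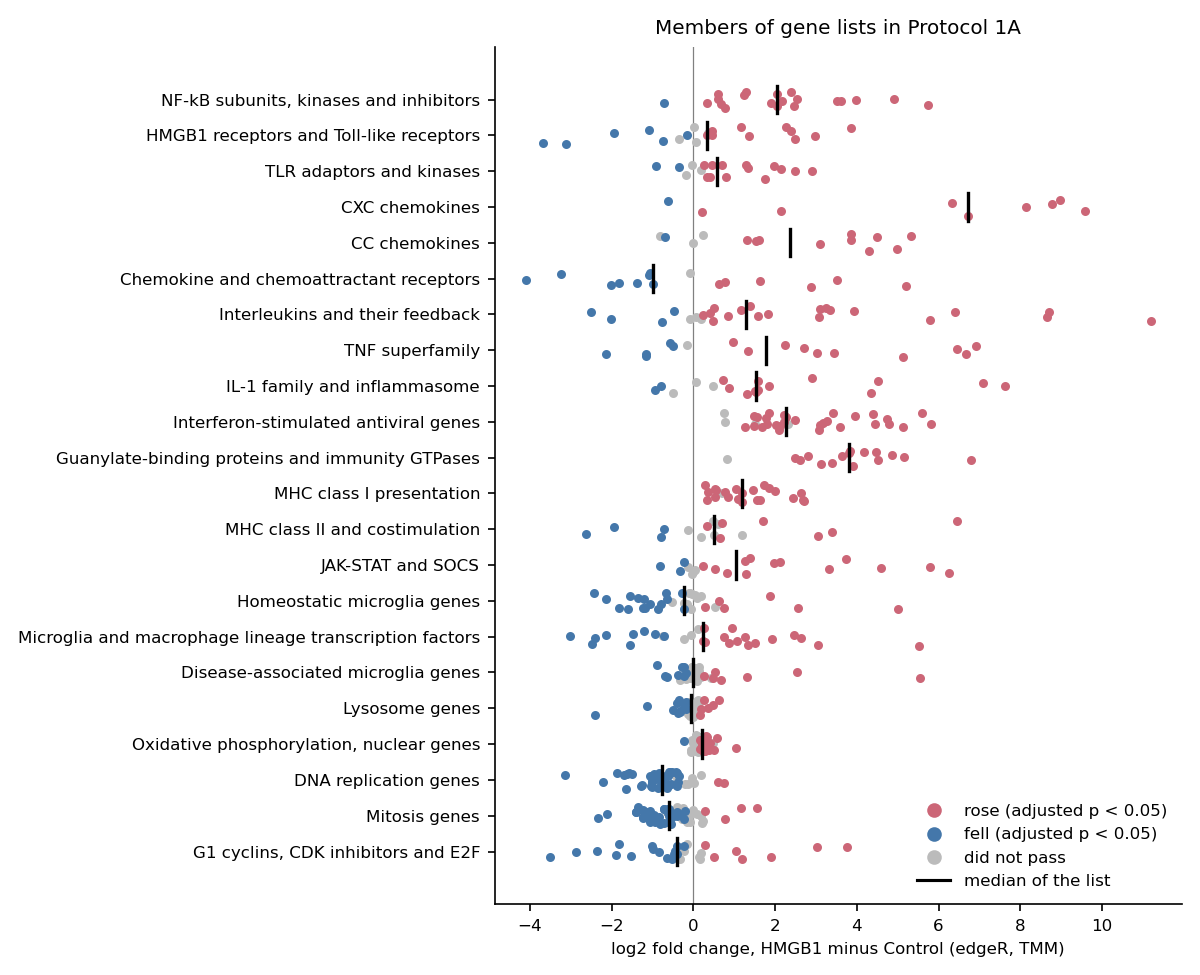
Each point is the log2 fold change (HMGB1 minus Control, edgeR with TMM) of one tested member of a gene list; red members rose, blue fell, grey did not pass, and the black bar is the median of the list. The NF-kB, CXC chemokine, interferon-stimulated and guanylate-binding lists have medians to the right of 0, and the DNA replication and mitosis lists to the left.

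The receptors known to sense HMGB1 moved apart. Among Toll-like receptors and other HMGB1 receptors 10 of 20 tested members rose, 6 fell and 4 did not pass (with total counts, 7 rose and 9 fell), against 29.7% and 31.6% of all genes tested. Tlr2 gave 170.1, 175 and 172 CPM in the Control libraries and 957, 943 and 982 CPM in the HMGB1 libraries (log2 fold change 2.48 ± 0.0641 SE, adjusted p = 1.11e-12), and its partner Tlr1 gave 17.5, 20.5 and 20.1 CPM without and 102, 101 and 102 CPM with HMGB1. Cd14, the co-receptor that hands ligands to TLR2 and TLR4, was at 361, 453 and 347 CPM without and 1792, 1874 and 1928 CPM with HMGB1 (2.27 ± 0.0971, adjusted p = 7.12e-10). Tlr4 itself lay at 85.1, 91 and 88.2 CPM without and 83.6, 87.8 and 97.2 CPM with HMGB1 and did not pass (log2 fold change 0.02 ± 0.0696 SE, adjusted p = 0.800), with overlapping groups. Its accessory gene Ly96 went from 9.26, 9.6 and 8.87 to 11.6, 12 and 11 CPM, a log2 change of 0.32 under TMM that turned to -0.10 with total counts. This call was also lost without any 1 library other than HMGB1 replicate 3. Cxcr4, which binds HMGB1 in complex with CXCL12, fell from 54.8, 54.8 and 59.9 to 5.94, 7.05 and 6.39 CPM, and Thbd, thrombomodulin, an HMGB1-binding surface protein, from 29.2, 28.8 and 29.1 to 3.11, 1.86 and 1.83 CPM. Havcr2, encoding TIM-3, gave 41.4, 38.2 and 26.2 CPM without and 8.99, 9.61 and 9.06 CPM with HMGB1. Of the HMGB genes themselves, Hmgb1 was at 41.7, 39.1 and 40.7 CPM without and 36, 34.6 and 33.8 CPM with HMGB1 and Hmgb2 at 40.6, 36.3 and 31.9 CPM without and 52.8, 54.3 and 53.6 CPM with HMGB1; the latter rose by 0.56 (log2), and with total counts the change was 0.13 and did not pass.

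Downstream of the receptors, 13 of 18 tested members rose, 2 fell and 3 did not pass (with total counts, 9 rose and 6 fell) among the adaptors and kinases. Irak3, which encodes an inactive kinase that restrains the pathway, went from 30.2, 28.1 and 30.6 to 228, 220.2 and 218 CPM (log2 fold change 2.91 ± 0.0675 SE, adjusted p = 4.56e-13). Irak2 gave 45.7, 43.3 and 50.8 CPM without and 246, 269 and 269.8 CPM with HMGB1 and Myd88 57.5, 62 and 71.7 CPM without and 267, 284 and 292 CPM with HMGB1. The TRIF gene Ticam1 and the kinase gene Irak1 did not pass, at 24.6, 27.1 and 32.4 CPM without and 32.2, 31.7 and 32.1 CPM with HMGB1 and 117, 101 and 105 CPM without and 109.9, 102 and 103 CPM with HMGB1. Irak4 and Tab1, upstream kinase and adaptor of the TAK1 complex, fell, with log2 fold changes of -0.35 and -0.92.

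The genes of NF-kB itself rose together, subunits and inhibitors alike. Of the subunits, IKK kinases, inhibitors and deubiquitinases 19 of 20 tested members rose, 1 fell and 0 did not pass (with total counts, 16 rose and 1 fell), with a median log2 fold change of 2.04 against -0.04 over all genes tested. Nfkb1, encoding p105/p50, gave 108, 110.4 and 113 CPM in the Control libraries and 649, 655 and 615 CPM in the HMGB1 libraries. Among the inhibitors, Nfkbia was at 50.3, 53.7 and 56.3 CPM without and 655, 661 and 647 CPM with HMGB1, Nfkbiz, a nuclear co-regulator needed for secondary response genes, at 13.2, 13.4 and 12.5 CPM without and 351, 420.5 and 406 CPM with HMGB1 (log2 fold change 4.91 ± 0.0889 SE, adjusted p = 5.09e-14), and Tnfaip3, which encodes the deubiquitinase A20, at 44, 43.2 and 47.7 CPM without and 696, 702 and 713 CPM with HMGB1 (log2 fold change 3.97 ± 0.0725 SE, adjusted p = 5.09e-14). Replicates of a group differed little for these genes and the groups were far apart. The exception was Map3k14, which encodes the kinase of the noncanonical route, at 16.2, 16 and 16.4 CPM without and 10.2, 10.4 and 9.13 CPM with HMGB1 (log2 fold change -0.71 ± 0.114 SE, adjusted p = 9.81e-05).

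The proximal promoters of Cxcl1, Cxcl2, Cxcl3 and Nfkbia, which rose, are shown because they hold NF-kB-like letters within 120 bases of the start. The windows are RefSeq promoters of build GRCm38.p6, printed 5′ to 3′ on the strand of the gene up to the base before the annotated start, and capitals mark matches to GGGNNTTTC on either strand. Of all 32851 windows of 300 bases in the table, 4.36% hold this motif. Shares over the NF-kB and chemokine lists are not given, because under 80% of their members that rose had a window.
Cxcl1 (chr5:90891125-90891244, plus strand): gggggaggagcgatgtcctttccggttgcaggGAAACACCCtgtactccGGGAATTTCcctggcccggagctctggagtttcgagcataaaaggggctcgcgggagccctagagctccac
Cxcl2 (chr5:90903779-90903898, plus strand): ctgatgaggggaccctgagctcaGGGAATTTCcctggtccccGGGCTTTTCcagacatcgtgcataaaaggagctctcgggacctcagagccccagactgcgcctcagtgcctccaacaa
Cxcl3 (chr5:90785981-90786100, plus strand): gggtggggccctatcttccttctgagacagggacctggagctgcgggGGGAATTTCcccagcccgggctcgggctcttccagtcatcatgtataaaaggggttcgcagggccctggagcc
Nfkbia (chr12:55492648-55492767, minus strand): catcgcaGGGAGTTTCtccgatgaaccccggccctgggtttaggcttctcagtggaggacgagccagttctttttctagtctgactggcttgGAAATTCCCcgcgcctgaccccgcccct
Cxcl1 and Cxcl2 each hold 2 matches in this stretch, among them GGGAATTTC, which Cxcl3 holds as well, and Nfkbia holds 2. The 3 chemokine genes lie near one another on chromosome 5, with Cxcl3 at chromosome 5, 90786103 to 90789600, plus strand in the deposited table. Its positions are those of GENCODE M21 (GRCm38) for 98.3% of the shared gene identifiers. Ereg lies on the same chromosome, at chromosome 5, 91074622 to 91093646, plus strand. A match is a description of letters and not a shown binding site.

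The chemokines rose with a narrow spread between replicates in some members and a wide one in others. For CXC chemokines 8 of 9 tested members rose, 1 fell and 0 did not pass (with total counts, 7 rose and 2 fell), and 4 of 13 were not tested for low counts. Cxcl1 gave 0.356, 0.139 and 0.493 CPM in the Control libraries and 182, 159 and 162 CPM in the HMGB1 libraries (log2 fold change 8.97 ± 0.166 SE, adjusted p = 7.50e-13), Cxcl3 gave 0.277, 0.371 and 0.246 CPM without and 334, 205 and 160.4 CPM with HMGB1, and Cxcl2 gave 4.35, 5.43 and 5.71 CPM without and 1532, 1422 and 1371 CPM with HMGB1 (8.13 ± 0.116). These encode ligands of CXCR2, which attracts neutrophils. Cxcl10, a ligand of CXCR3 induced by interferon, went from 2.69, 9.23 and 16.7 to 3377, 4544 and 4503 CPM, and Cxcl11, of the same group, from at most 0.139 CPM to 2.26, 4.78 and 5.26 CPM. Cxcl14 fell from 20.6, 17.4 and 18.8 to 11.9, 12.1 and 12.7 CPM. For CC chemokines 10 of 14 tested members rose, 1 fell and 3 did not pass (with total counts, 10 rose and 2 fell). Ccl3 and Ccl4, which attract monocytes and T cells, gave 141, 162 and 206 CPM without and 3586, 4219 and 3693 CPM with HMGB1 and 95.1, 129 and 152 CPM without and 1646, 1913 and 1906 CPM with HMGB1. Ccl5 went from 12.2, 29.6 and 70.2 CPM, the spread of the Control libraries being wide, to 1098, 1157 and 1258 CPM. Ccl2, the ligand of CCR2, was at 30.9, 46.2 and 44.4 CPM without and 481, 728 and 559 CPM with HMGB1. Ccl6 did not pass and lay at 231, 232 and 223 CPM without and 222, 227 and 230.2 CPM with HMGB1. Together the 13 CXC chemokines took 0.0218 ± 0.00158% of all counts in Control and 0.55 ± 0.0462% with HMGB1 (SD, n = 3; exact permutation test, two-sided p = 0.1, the smallest that 3 against 3 allows). The 18 CC chemokines took 0.138 ± 0.0125% of all counts in Control and 0.837 ± 0.0821% with HMGB1 (SD, n = 3; exact permutation test, p = 0.1).

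Of the receptors for chemokines and chemoattractants, more fell than rose, 6 of 15 tested members rose, 8 fell and 1 did not pass (with total counts, 6 rose and 8 fell). The receptors for formyl peptides rose, Fpr1 from 69.8, 78.3 and 67.6 to 862, 802 and 782 CPM. Cmklr1, the chemerin receptor, gave 56.9, 52.7 and 50.1 CPM without and 184, 154 and 154 CPM with HMGB1. Ccr2, the receptor of CCL2, fell from 28.6, 32 and 44.2 to 2.94, 3.98 and 4.28 CPM (log2 fold change -3.23 ± 0.203 SE, adjusted p = 3.96e-07), and Cx3cr1, the fractalkine receptor of microglia, from 22.7, 42.8 and 40.8 to 13.3, 15.7 and 22 CPM (log2 fold change -1.07 ± 0.342 SE, adjusted p = 0.0482). The 2 groups did not overlap for either gene, but the call of Cx3cr1 was lost without either of Control replicates 2 and 3 or HMGB1 replicates 1 and 2, with DESeq2 size factors, and with no filter on low counts.

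Cytokine genes of several families rose. In the IL-1 family and inflammasome list 13 of 18 tested members rose, 2 fell and 3 did not pass (with total counts, 13 rose and 3 fell). Il1a gave 5.7, 5.52 and 6.16 CPM without and 740.4, 911 and 702 CPM with HMGB1 and Nlrp3, the sensor of the inflammasome, 34, 38.8 and 31.6 CPM without and 761, 811 and 803 CPM with HMGB1. Il1rn, the gene of the natural antagonist of the IL-1 receptor, went from 166, 221 and 252 to 436, 554 and 583 CPM, and the protease gene Casp1 from 76.4, 78.7 and 99.8 to 237, 257 and 243 CPM. Pycard, the adaptor that joins NLRP3 to caspase-1, fell from 36.3, 40.8 and 40.9 to 22.1, 21.2 and 24.3 CPM. Among TNF superfamily genes 10 of 16 tested members rose, 5 fell and 1 did not pass (with total counts, 10 rose and 5 fell): Tnfrsf1b, the second TNF receptor, stood at 768, 759 and 767 CPM without and 3787, 3466 and 3606 CPM with HMGB1, and Tnfsf9, a costimulatory ligand, at 4.79, 5.8 and 6.45 CPM without and 43.3, 47.2 and 47.9 CPM with HMGB1, while Tnfsf12 (TWEAK) fell to 16.3, 15.9 and 15.9 CPM from 35.6, 36.4 and 35.4 CPM. Of the interleukins, their receptors and their feedback genes 19 of 26 tested members rose, 4 fell and 3 did not pass (with total counts, 15 rose and 7 fell). Il23a stayed low, at 0, 0.0464 and 0.246 CPM without and 0.905, 0.654 and 1.4 CPM with HMGB1. Il6ra, the receptor chain for interleukin-6, fell from 112, 114 and 127 to 27.6, 32.1 and 27.5 CPM (log2 fold change -2.01 ± 0.0806 SE, adjusted p = 6.90e-11). Il10, an inhibitory cytokine, and Csf2, the gene of GM-CSF, were not tested for low counts, with at most 21 and 29 counts in a library. Of the colony stimulating factors and their receptors 7 of 8 tested members rose, 0 fell and 1 did not pass (with total counts, 3 rose and 2 fell); Csf1, the ligand of CSF1R, gave 18, 21 and 25.9 CPM without and 121, 139 and 116 CPM with HMGB1.

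Interferon-stimulated genes rose by large factors, from Control levels that differed several-fold between the Control libraries. Of the antiviral genes 29 of 33 tested members rose, 0 fell and 4 did not pass (with total counts, 25 rose and 0 fell), and of the guanylate-binding proteins and immunity GTPases 15 of 16 tested members rose, 0 fell and 1 did not pass (with total counts, 15 rose and 0 fell). No tested member of either list fell on either scale. Ifit1, which binds foreign RNA ends, gave 27, 49.2 and 119 CPM in the Control libraries and 2015, 2359 and 2450.5 CPM in the HMGB1 libraries (log2 fold change 5.13 ± 0.713 SE, adjusted p = 0.00379). Ifit2 gave 60.5, 131 and 360.5 CPM without and 3547, 3938 and 4518 CPM with HMGB1, Cmpk2, a mitochondrial nucleotide kinase, 30.9, 67.2 and 129 CPM without and 3107, 3934 and 3826 CPM with HMGB1, and Mx1 20.4, 32.6 and 77.1 CPM without and 907, 1445 and 1246 CPM with HMGB1. In each of these genes Control replicate 3 was highest and Control replicate 1 lowest, and the lowest HMGB1 library lay well above both. Gbp5, a GTPase that targets intracellular pathogens, was at 4.55, 9.78 and 21.6 CPM without and 1199, 1371 and 1356 CPM with HMGB1 (log2 fold change 6.79 ± 0.712 SE, adjusted p = 0.00142). Irf7, the factor that amplifies interferon production, was at 91.9, 195 and 445 CPM without and 864, 979 and 1129.97 CPM with HMGB1 and did not pass (log2 fold change 2.02 ± 0.661 SE, adjusted p = 0.057), although the groups did not overlap. It passed without Control replicate 3, by the DESeq2 Wald test and in a fit of all 30 libraries. Ifitm3 and Bst2, restriction factors, also did not pass, at 331, 463 and 635 CPM without and 722, 752 and 934 CPM with HMGB1 and 267, 376 and 552 CPM without and 627, 589 and 814 CPM with HMGB1. Without Control replicate 3, all 33 antiviral genes and all 16 of the second list rose, and without Control replicate 1 these counts were 30 and 15. The antiviral count fell to 19 of 33 without Control replicate 2, was 23, 20 and 20 without HMGB1 replicates 1, 2 and 3, and was 33 by the DESeq2 Wald test. The 35 antiviral genes summed to 0.261% to 0.633% of all counts in the Control libraries and to 2.48% to 2.97% with HMGB1. Ifnb1 itself, encoding interferon beta, was low, at 0, 0 and 0.148 CPM without and 1.02, 3.37 and 4.14 CPM with HMGB1 (adjusted p = 1.86e-04).

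**Figure D3:**
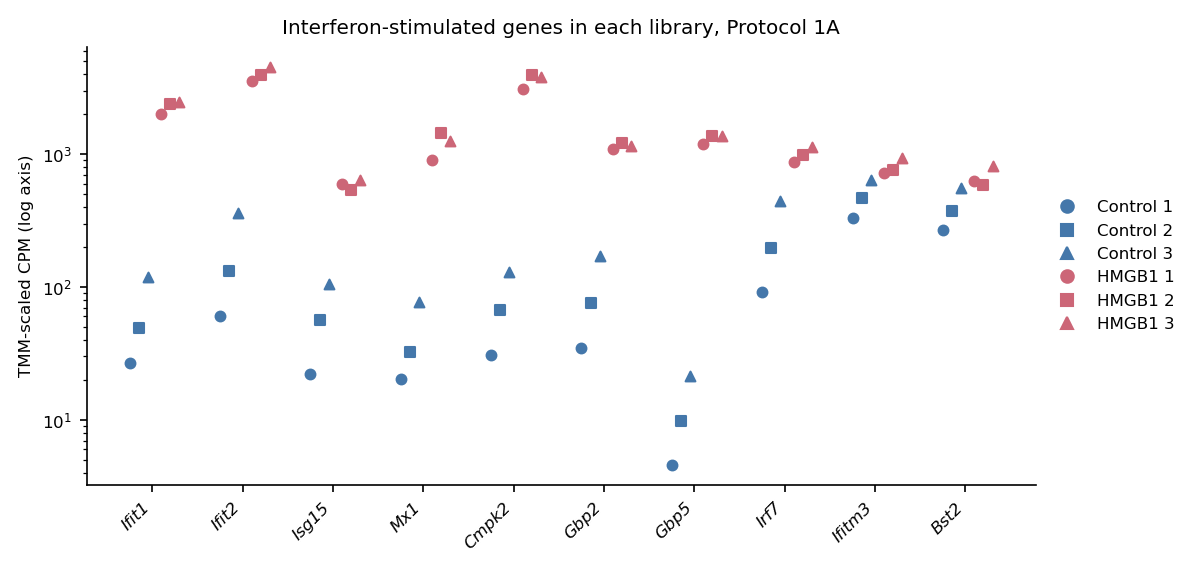
TMM-scaled CPM (log axis) of 10 interferon-stimulated genes in each of the 3 Control (blue) and 3 HMGB1 (red) libraries; circles, squares and triangles are replicates 1, 2 and 3. Control replicate 3 is the highest Control library for each gene; for Irf7, Ifitm3 and Bst2 it lies near the HMGB1 libraries.

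The promoter of Ifit1 is shown with matches to GAAANNGAA, the core of the interferon response element, in capitals. The 3 matches lie on the strand opposite to the gene, and a pair of them overlap. Of all windows 8.56% hold this motif.
Ifit1 (chr19:34640769-34640888, plus strand): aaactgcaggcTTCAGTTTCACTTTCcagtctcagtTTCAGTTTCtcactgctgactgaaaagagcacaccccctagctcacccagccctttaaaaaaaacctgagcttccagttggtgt

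Among JAK kinases, STAT factors and SOCS inhibitors 13 of 20 tested members rose, 3 fell and 4 did not pass (with total counts, 11 rose and 7 fell). Socs3, a feedback inhibitor of interleukin-6 signalling, gave 4.75, 4.78 and 7.93 CPM without and 441, 451 and 430.3 CPM with HMGB1 (log2 fold change 6.25 ± 0.214 SE, adjusted p = 1.11e-06) and Jak2 51.9, 51.1 and 53.5 CPM without and 499, 527 and 544 CPM with HMGB1. Stat6, the mediator of interleukin-4, fell from 259.9, 268 and 257 to 201, 208 and 215 CPM. Irf1 rose to 549.8, 490.2 and 514 CPM from 47, 47.6 and 61.8 CPM, whereas Irf8, a factor on which microglia depend, fell from 138, 139 and 170.01 to 79.2, 96.3 and 96.2 CPM (log2 fold change -0.72 ± 0.101 SE, adjusted p = 1.09e-04).

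Most genes of MHC class I presentation rose, and those of class II were mixed. Of the class I pathway 22 of 23 tested members rose, 0 fell and 1 did not pass (with total counts, 14 rose and 0 fell), with a median of 1.19; without Control replicate 2, 14 rose. Psme2, an activator of the proteasome, gave 84.4, 102 and 107 CPM without and 316, 276 and 308 CPM with HMGB1, and Tap2, a peptide transporter, 32.1, 36.2 and 45.2 CPM without and 156, 153 and 146 CPM with HMGB1. Of class II and costimulation 7 of 17 tested members rose, 4 fell and 6 did not pass (with total counts, 5 rose and 5 fell). H2-Aa, a class II chain, spread widely in both groups, at 2.53, 8.76 and 14.6 CPM without and 2.83, 10.3 and 16.4 CPM with HMGB1, and did not pass. Cd40 rose to 266, 283 and 258 CPM from 1.58, 3.15 and 4.68 CPM (log2 fold change 6.45 ± 0.357 SE, adjusted p = 1.02e-04). The ligand genes Cd274 (PD-L1) and Icosl gave 70.9, 77.9 and 112 CPM without and 874, 919 and 953 CPM with HMGB1 and 9.7, 9.69 and 7.44 CPM without and 75.8, 76.9 and 68.1 CPM with HMGB1. Vsir, encoding the inhibitory protein VISTA, fell to 32.1, 27.1 and 35.7 CPM from 211, 187 and 184 CPM.

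Of the enzymes of prostaglandins, nitric oxide, arginine and itaconate 11 of 23 tested members rose, 9 fell and 3 did not pass (with total counts, 9 rose and 12 fell), against 29.7% rises and 31.6% falls of all genes tested. Acod1, which makes itaconate, lay at 21.8, 46.6 and 76.4 CPM in the Control libraries and at 7584, 7808 and 7916 CPM in the HMGB1 libraries. Ptgs2, the inducible cyclooxygenase, gave 4.39, 4.64 and 5.86 CPM without and 957, 1162 and 1073 CPM with HMGB1, and Ptges, the prostaglandin E synthase after it, 11.6, 14.1 and 16.8 CPM without and 869.98, 768 and 897 CPM with HMGB1 (log2 fold change 5.90 ± 0.145 SE, adjusted p = 6.35e-10). Hpgd, which breaks prostaglandins down, fell from 31.8, 32.6 and 35 to 3.11, 2.57 and 2.18 CPM (log2 fold change -3.65 ± 0.134 SE, adjusted p = 3.10e-11). Nos2, the inducible nitric oxide synthase, went from 0.198, 1.34 and 3.74 to 357, 494 and 559 CPM. The arginine transporter gene Slc7a2 rose from 34.2, 29.4 and 30.5 to 1228, 1166 and 1279 CPM, and Arg1 fell from 9.62, 7.1 and 4.88 to 4.24, 4.68 and 3.72 CPM, a call lost without Control replicate 1. All 23 genes together took 0.148 ± 0.00392% of all counts in Control and 1.11 ± 0.0354% with HMGB1 (SD, n = 3; exact permutation test, two-sided p = 0.1).

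Of the NADPH oxidase subunits and antioxidant genes 16 of 22 tested members rose, 1 fell and 5 did not pass (with total counts, 13 rose and 4 fell). Sod2, the mitochondrial superoxide dismutase, gave 113, 135 and 141 CPM without and 1378, 1265 and 1287 CPM with HMGB1, and Slc7a11, the cystine importer, 184, 154 and 115 CPM without and 2009, 1469.6 and 1534 CPM with HMGB1. Of the genes of sugar use and hypoxia 14 of 29 tested members rose, 9 fell and 6 did not pass (with total counts, 8 rose and 15 fell), and 5 fell without HMGB1 replicate 2. Slc2a6, a hexose transporter, went from 72.6, 89.5 and 109.5 to 683, 648 and 682 CPM (log2 fold change 2.89 ± 0.144 SE, adjusted p = 9.23e-07), Pfkfb3, which drives glycolytic flux, from 65.2, 63.5 and 71.6 to 134, 152 and 158 CPM, and Hif1a from 121, 130.3 and 111 to 309, 289 and 321 CPM. Pkm did not pass, at 1869, 1881 and 1897 CPM without and 2081, 1832 and 1979 CPM with HMGB1. For nuclear genes of oxidative phosphorylation 25 of 51 tested members rose, 1 fell and 25 did not pass (with total counts, 1 rose and 32 fell). The rises numbered 16 without Control replicate 1 or without HMGB1 replicate 1. Of the genes of the mitochondrial genome 9 of 12 tested members rose, 0 fell and 3 did not pass (with total counts, 0 rose and 2 fell). Of the enzymes of the TCA cycle 9 of 25 tested members rose, 5 fell and 11 did not pass (with total counts, 1 rose and 21 fell), and 3 fell without Control replicate 3 or HMGB1 replicate 2 or 3. Idh1, a cytosolic isocitrate dehydrogenase, fell from 267, 268 and 280.1 to 136, 118 and 127 CPM.

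Of the genes of the homeostatic state of microglia 6 of 34 tested members rose, 16 fell and 12 did not pass (with total counts, 5 rose and 26 fell), beside 29.7% and 31.6% of all genes tested. P2ry6, the receptor that triggers uptake of debris, fell from 97.1, 108 and 99.6 to 17.1, 18.3 and 20.8 CPM (log2 fold change -2.44 ± 0.084 SE, adjusted p = 1.76e-11). Tgfbr1 and Tgfbr2, receptors for the cytokine on which microglia identity depends, fell, with log2 fold changes of -1.23 and -1.18. Gpr84, a receptor for medium-chain fatty acids, rose to 233, 261 and 256 CPM from 6.25, 8.3 and 8.77 CPM. Ctss, a lysosomal gene that is high in microglia, did not pass, at 2782, 2685 and 3195 CPM without and 3249.8, 2623 and 3309 CPM with HMGB1. Of the transcription factors of the lineage 15 of 28 tested members rose, 9 fell and 4 did not pass (with total counts, 12 rose and 14 fell). Ets2 and Cebpd rose, to 536, 550.5 and 544 CPM and to 288, 324 and 320.03 CPM from 63, 73.8 and 59 and 45.4, 47.5 and 56.5 CPM, and Tfeb, a regulator of lysosome genes, fell from 51.6, 52.9 and 53.2 to 12.4, 8.71 and 8.56 CPM (log2 fold change -2.40 ± 0.124 SE, adjusted p = 2.54e-09).

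Of the receptors for nucleotides, adenosine and lipids 10 of 28 tested members rose, 10 fell and 8 did not pass (with total counts, 7 rose and 15 fell), shares near the 29.7% rises and 31.6% falls of all genes tested. Adora2a, the adenosine receptor known to restrain inflammation, gave 1.62, 2.32 and 1.38 CPM without and 143, 119.6 and 129 CPM with HMGB1 (log2 fold change 6.20 ± 0.138 SE, adjusted p = 7.61e-12), and Adora2b, its relative of low affinity, 5.07, 4.17 and 3.4 CPM without and 29.5, 28.6 and 30.6 CPM with HMGB1. Hcar2, the receptor for hydroxybutyrate and niacin, gave 15, 21.1 and 28.7 CPM without and 186, 219 and 233 CPM with HMGB1. P2rx7, an ATP-gated channel, fell from 73.4, 73.8 and 82 to 29, 26.3 and 26.7 CPM.

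Of the genes named for disease-associated microglia 7 of 30 tested members rose, 8 fell and 15 did not pass (with total counts, 2 rose and 21 fell), no larger shares than the 29.7% rises and 31.6% falls of all genes tested. The count of rises was 3 or 4 without Control replicate 2 or any 1 HMGB1 replicate, and that of falls 5 without HMGB1 replicate 2. Together they took 6.69 ± 0.245% of all counts in Control and 4.98 ± 0.15% with HMGB1 (SD, n = 3; exact permutation test, two-sided p = 0.1). On the TMM scale their summed level overlapped, at 54970 to 61500 CPM in Control and 54760 to 59840 CPM with HMGB1. Spp1, osteopontin, lay at 7895, 7714 and 8703 CPM without and 7630.5, 8054 and 8137 CPM with HMGB1, and Apoe at 6456, 5647 and 6248 CPM without and 7236, 5666 and 6709 CPM with HMGB1; neither passed. Trem2, the lipid-sensing receptor of the program, fell from 486, 407 and 416 to 310.3, 257 and 267 CPM (log2 fold change -0.65 ± 0.0886 SE, adjusted p = 3.11e-05). Of lysosome genes 6 of 40 tested members rose, 12 fell and 22 did not pass (with total counts, 1 rose and 36 fell), and 3 rose without Control replicate 1 or 2 or HMGB1 replicate 3. Ctsb lay at 9247, 9111 and 10135 CPM without and 10607, 10089 and 10733 CPM with HMGB1 and did not pass. Of the cholesterol synthesis genes 10 of 24 tested members rose, 8 fell and 6 did not pass (with total counts, 4 rose and 14 fell), and 5 fell without HMGB1 replicate 3; Dhcr7, the last enzyme of the pathway, was at 87.7, 96.1 and 95.1 CPM without and 46.4, 35.7 and 43.3 CPM with HMGB1. Of the LXR targets 5 of 19 tested members rose, 8 fell and 6 did not pass (with total counts, 3 rose and 12 fell). Abca1, which exports cholesterol, rose from 31.3, 31 and 31.3 to 82.2, 75.6 and 91.4 CPM, and Rxra, the partner of LXR, fell from 158, 145 and 146 to 61.1, 50.4 and 59.6 CPM.

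Among complement genes 8 of 19 tested members rose, 2 fell and 9 did not pass (with total counts, 5 rose and 10 fell), and 5 rose without Control replicate 2 or HMGB1 replicate 3. C3 gave 293, 410.1 and 638 CPM without and 1023, 1136 and 1424 CPM with HMGB1 (log2 fold change 1.42 ± 0.351 SE, adjusted p = 0.0249), with Control replicate 3 again the highest of its group. This call was lost without Control replicate 2 or any 1 of the HMGB1 replicates. C1qb did not pass, at 489.8, 467 and 557 CPM without and 549, 548 and 630.1 CPM with HMGB1. Of the Fc, scavenger and phagocytic receptors 13 of 26 tested members rose, 7 fell and 6 did not pass (with total counts, 10 rose and 12 fell). Clec4e, the Mincle receptor for glycolipids of microbes and dead cells, went from 248, 325 and 373 to 5507, 4937 and 5358 CPM (log2 fold change 4.06 ± 0.16 SE, adjusted p = 2.91e-07), and Marco, a scavenger receptor, from 248, 300.4 and 248 to 2091, 1639 and 1183 CPM. Gas6, a ligand that bridges dying cells to their receptors, fell from 380.05, 355 and 403 to 208, 190.1 and 199 CPM.

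Most DNA replication genes fell. In this list 2 of 47 tested members rose, 38 fell and 7 did not pass (with total counts, 1 rose and 45 fell). The list's median was -0.76 on the log2 scale, against -0.04 over all genes tested. Uhrf1, which copies DNA methylation after replication, gave 39.6, 42.1 and 36.5 CPM in the Control libraries and 10.6, 11.5 and 9.97 CPM in the HMGB1 libraries (log2 fold change -1.87 ± 0.101 SE, adjusted p = 1.46e-09), and Mcm7, a subunit of the replicative helicase, 37.7, 43.7 and 39.9 CPM without and 11.1, 12.1 and 14.2 CPM with HMGB1. Pcna, the sliding clamp, fell less, from 258, 302 and 293 to 217, 211 and 216 CPM (-0.41, adjusted p = 1.85e-04). Mcm10 and Rfc3 rose, with log2 fold changes of 0.74 and 0.61. Of mitosis genes 4 of 55 tested members rose, 37 fell and 14 did not pass (with total counts, 3 rose and 48 fell). Cdc25b, a phosphatase that opens mitosis, fell from 41.4, 41.2 and 36.4 to 8.37, 8.56 and 6.32 CPM, and Espl1, which encodes separase, from 19.8, 22.7 and 17.2 to 8.76, 8.71 and 7.86 CPM. Mki67, the gene of the Ki-67 antigen, went the other way, from 114, 115 and 85.9 to 253, 258 and 195 CPM (log2 fold change 1.17 ± 0.157 SE, adjusted p = 8.16e-04), as did Cenpe, a kinetochore motor, from 22.2, 24.3 and 18.8 to 33.7, 41.2 and 37 CPM. Cdk1 did not pass, at 27, 26.2 and 23.5 CPM without and 22.6, 23.1 and 18.1 CPM with HMGB1. Of the regulators of the G1 phase 7 of 29 tested members rose, 16 fell and 6 did not pass (with total counts, 5 rose and 20 fell). Ccnd1 fell from 108, 137 and 139.7 to 30.3, 36.6 and 42.3 CPM while Ccnd2, the related D-type cyclin, rose from 3.01, 2.37 and 4.19 to 33.6, 51.9 and 44 CPM (log2 fold change 3.77 ± 0.237 SE, adjusted p = 4.31e-06). The inhibitor gene Cdkn1a (p21) rose from 132, 163 and 169 to 563, 585 and 585 CPM, and E2f2 and Myc fell, to 4.24, 3.52 and 3.44 CPM from 43.6, 47.3 and 37.1 CPM and to 6.9, 8.71 and 5.9 CPM from 22.9, 20.4 and 19.8 CPM.

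**Figure D4:**
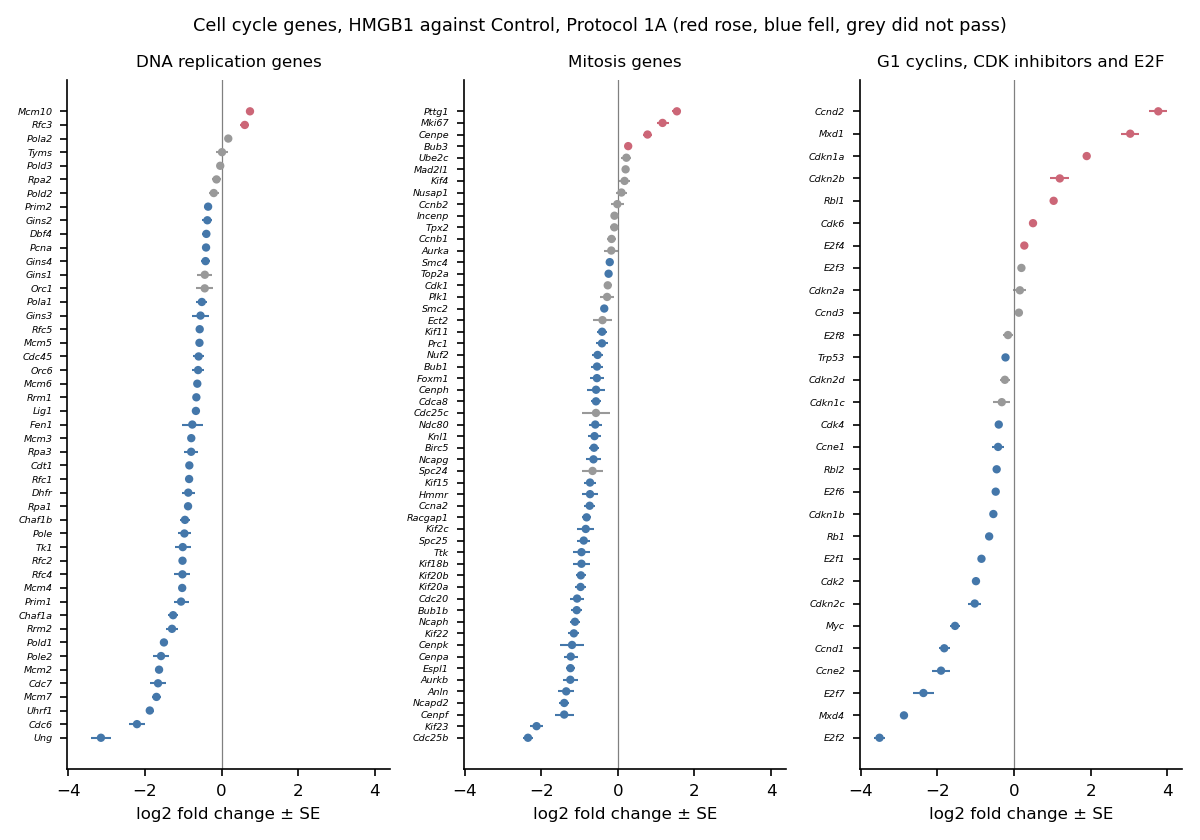
Log2 fold change ± SE (HMGB1 minus Control, edgeR with TMM) of the DNA replication, mitosis and G1 genes, ordered by value; red rose, blue fell, grey did not pass. Of the 47 replication genes 38 fell and 2 rose, and of the 55 mitosis genes 37 fell and 4 rose, among them Pttg1 and Mki67.

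Promoters of the fallen cell cycle genes are shown for 2 motifs. Of the 37 mitosis genes that fell, 32 had a window in the RefSeq table; TTTGAA, the core of the cell cycle homology region that binds the DREAM complex, was found on either strand in 26 of their 35 windows (74.3%), against 17.9% of all windows of the table and 12.4% of those of genes tested, of which 71.2% had a window. Within 40 bases of the start it was in 24 (68.6%), against 4.20% and 2.77%. GGCGGGAA, an E2F-like motif, was in 8 of the 37 windows (21.6%) of the 31 matched replication genes that fell, against 2.19% of all windows and 4.09% of those of genes tested. Capitals mark the matches, TTTGAA in Espl1 and Cdc20 and GGCGGGAA, on the opposite strand as TTCCCGCC, in Uhrf1 and Rrm1. Uhrf1 has another window in the table, whose 120 bases before the start hold 0 matches. Among all genes that fell at least 2-fold, of which 70.6% had a window, 14.1% of windows held TTTGAA and 3.9% held GGCGGGAA. These lay near the 12.4% and 4.09% of genes tested. Shares were not taken for mitosis or replication genes that did not fall, so the motifs cannot be tied to the fall. These are shares of letters, without a test.
Espl1 (chr15:102296173-102296292, plus strand): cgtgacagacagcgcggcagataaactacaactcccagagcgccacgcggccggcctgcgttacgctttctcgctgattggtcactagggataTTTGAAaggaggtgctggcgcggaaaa
Cdc20 (chr4:118437344-118437463, minus strand): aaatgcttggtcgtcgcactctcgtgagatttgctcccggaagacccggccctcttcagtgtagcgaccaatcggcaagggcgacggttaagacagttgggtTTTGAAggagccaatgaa
Uhrf1 (chr17:56303217-56303336, plus strand): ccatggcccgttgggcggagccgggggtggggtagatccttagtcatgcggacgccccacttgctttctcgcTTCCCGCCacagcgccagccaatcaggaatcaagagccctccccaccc
Rrm1 (chr7:102441575-102441694, plus strand): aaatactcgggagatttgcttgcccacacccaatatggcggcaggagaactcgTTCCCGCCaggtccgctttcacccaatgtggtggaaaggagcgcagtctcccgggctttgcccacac

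In the BCL2 family, which governs survival and death, 9 of 17 tested members rose, 5 fell and 3 did not pass (with total counts, 6 rose and 8 fell), beside 29.7% and 31.6% of all genes tested. The near-identical copies Bcl2a1a, Bcl2a1b and Bcl2a1d, which encode the protective protein A1, all rose, the first from 6.57, 6.31 and 6.65 to 150.01, 150.2 and 146 CPM; how the counting split reads between these copies is uncertain. Mcl1 gave 669, 708 and 764 CPM without and 1057, 1064 and 1105 CPM with HMGB1. Bmf, which encodes a death-promoting BH3-only protein, fell from 34.4, 35.1 and 39.1 to 1.19, 1.31 and 0.421 CPM. Of the death receptors, caspases and necroptosis genes 14 of 21 tested members rose, 3 fell and 4 did not pass (with total counts, 13 rose and 6 fell). Cflar, encoding the caspase-8 inhibitor FLIP, gave 124, 135 and 134 CPM without and 1032, 1039 and 1116 CPM with HMGB1, and Birc3 54.7, 57.4 and 53.9 CPM without and 236, 251 and 233 CPM with HMGB1, while Casp9 fell from 69.8, 76.4 and 71.7 to 45.3, 37.5 and 45.5 CPM.

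Regulators of RNA decay and MAP kinase phosphatases both held members that rose and members that fell. Of the regulators of RNA decay 9 of 13 tested members rose, 4 fell and 0 did not pass (with total counts, 6 rose and 4 fell). Zc3h12a, the endonuclease Regnase-1, gave 27.3, 25.2 and 24.3 CPM without and 145, 139.9 and 163 CPM with HMGB1, and Zfp36, tristetraprolin, 52.8, 56 and 51.6 CPM without and 235, 281 and 259 CPM with HMGB1, whereas Zfp36l2 fell from 415, 406 and 414 to 179, 129 and 142 CPM. Among the MAP kinase phosphatases 4 of 13 tested members rose, 5 fell and 4 did not pass (with total counts, 4 rose and 8 fell). These shares lay near the 29.7% rises and 31.6% falls of all genes tested. Dusp2 rose from 0.475, 0.835 and 1.08 to 24, 23.9 and 22.7 CPM. Dusp1, an immediate early member, did not pass, at 18.8, 20.3 and 15.3 CPM without and 19.8, 19.7 and 20.4 CPM with HMGB1. Of AP-1, EGR and other immediate early genes 15 of 25 tested members rose, 5 fell and 5 did not pass (with total counts, 7 rose and 7 fell), and 3 fell without HMGB1 replicate 3. Junb and Maff rose, from 108, 111 and 111 to 363, 328 and 369 CPM and from 7.68, 5.7 and 7.19 to 63.8, 54.3 and 49.5 CPM; Jun did not pass, at 144, 135 and 134 CPM without and 134, 133 and 123 CPM with HMGB1, and Egr2 fell from 29.9, 19 and 25.2 to 12, 10.1 and 7.58 CPM.

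Matrix enzymes, growth factors and adhesion genes each held members that rose and members that fell. Of the matrix proteases and their inhibitors 12 of 19 tested members rose, 4 fell and 3 did not pass (with total counts, 11 rose and 5 fell). Mmp13, a collagenase, gave 17.2, 17.3 and 32.7 CPM without and 470.04, 732 and 569.7 CPM with HMGB1, Serpinb2, an inhibitor of plasminogen activators, 2.3, 3.2 and 3.3 CPM without and 120.3, 138 and 149 CPM with HMGB1, and Adamts4, an aggrecanase, 0.119, 0.0464 and 0.0493 CPM without and 20.3, 26.1 and 22.8 CPM with HMGB1. Plau, urokinase, fell from 518, 595 and 656 to 197, 172 and 161 CPM (log2 fold change -1.74, adjusted p = 3.02e-08) while its receptor gene Plaur rose from 137, 138 and 119 to 329, 322 and 281 CPM. Of the growth factors 8 of 21 tested members rose, 8 fell and 5 did not pass (with total counts, 7 rose and 11 fell). Over all genes tested 29.7% rose and 31.6% fell. Areg, a second ligand of the EGF receptor, reached 8.76, 8.15 and 5.55 CPM, Pdgfc fell from 6.17, 8.16 and 7.49 to 1.41, 1.01 and 1.68 CPM, and Igf1 did not pass, at 687, 683 and 769.8 CPM without and 684, 673 and 725 CPM with HMGB1. Of TGF-beta receptors and SMADs 17 of 24 tested members rose, 5 fell and 2 did not pass (with total counts, 8 rose and 8 fell); Skil, an inhibitor of SMAD signalling, gave 40.9, 45.2 and 36.2 CPM without and 192, 211 and 233 CPM with HMGB1 while the related Ski fell from 134, 126 and 134 to 48.8, 45.4 and 45.8 CPM. Of integrins and adhesion genes 12 of 22 tested members rose, 4 fell and 6 did not pass (with total counts, 9 rose and 8 fell). Icam1, the ligand of leukocyte integrins, rose from 61.2, 70.7 and 70.9 to 839, 809 and 805 CPM (log2 fold change 3.60 ± 0.0787 SE, adjusted p = 3.12e-13).

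Of the unfolded protein and integrated stress response 14 of 26 tested members rose, 6 fell and 6 did not pass (with total counts, 7 rose and 12 fell). Hspa5, the chaperone BiP, gave 999, 1010.2 and 997 CPM without and 2003, 1919 and 2004 CPM with HMGB1. Of heat shock chaperones 9 of 16 tested members rose, 1 fell and 6 did not pass (with total counts, 4 rose and 8 fell). Of iron and metal genes 11 of 17 tested members rose, 4 fell and 2 did not pass (with total counts, 7 rose and 7 fell). Lcn2, which binds bacterial siderophores, rose from 0.317, 0.139 and 0.197 to 46, 51.6 and 59.7 CPM (log2 fold change 7.83 ± 0.199 SE, adjusted p = 9.30e-13). Slc11a2, an iron importer, rose from 72.5, 67.7 and 67.9 to 251, 234 and 241 CPM, and Slc40a1, the iron exporter ferroportin, fell from 113, 97.6 and 111 to 41.4, 34.3 and 33.6 CPM. Of the transporters for sugars, amino acids and lactate 12 of 23 tested members rose, 9 fell and 2 did not pass (with total counts, 11 rose and 10 fell). Slc15a3, a peptide transporter of lysosomes, gave 415, 456 and 473 CPM without and 1401, 1449 and 1443 CPM with HMGB1, and Slc37a2 fell from 341, 350.2 and 323 to 96, 89.4 and 104 CPM. Of the genes of ribosome biogenesis 10 of 31 tested members rose, 6 fell and 15 did not pass (with total counts, 3 rose and 20 fell). For comparison, 29.7% of all genes tested rose and 31.6% fell. Wdr43 rose from 36.6, 37.5 and 37.7 to 115, 113 and 121 CPM.

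Of the noncoding RNA genes tested, most did not rise. Here 2 of 19 tested members rose, 9 fell and 8 did not pass (with total counts, 2 rose and 13 fell). Mir155hg, the host transcript of miR-155, rose from 0.158, 0.185 and 0.0985 to 23.5, 39 and 29.97 CPM (log2 fold change 7.64 ± 0.307 SE, adjusted p = 2.05e-09), and Ptgs2os2, which lies antisense to Ptgs2, from 0.95, 0.232 and 0.394 to 5.43, 6.19 and 5.41 CPM; whether the counting used strand is not given in the sources used here, so reads of the latter and of Ptgs2 cannot be told apart. Malat1 and Neat1, nuclear RNAs, did not pass, at 1551, 1478 and 1105 CPM without and 674, 1214 and 948 CPM with HMGB1 and 394, 312 and 252 CPM without and 242, 322 and 202 CPM with HMGB1. Bambi-ps1, a pseudogene of Bambi, rose from 1.66, 2.92 and 2.51 to 46.3, 58.5 and 62.8 CPM, a value that is uncertain for a copy that can share reads with its parent gene. Trerf1, listed with a noncoding biotype in the deposited table, fell from 32.5, 33.6 and 34.2 to 8.93, 7.25 and 8.35 CPM.

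The response of Protocol 1A was then set against that of Protocol 1B, which had the same 10 days of culture but no GM-CSF. The test used a fit of all 30 libraries in 10 groups, so that the adult cells of Protocols 2 and 3 entered its estimate of the spread. In this fit the response was higher in 1A for 583 of 18182 genes tested (3.21%) and lower for 672 (3.7%). The compared groups shared no library. By the DESeq2 Wald test 1010 were lower. Both counts were also larger with the replicate number as a block in the fit, as given under the processing. Of the NF-kB genes 12 of 20 had a lower response in 1A, among them Nfkb1, Nfkbia and Nfkbiz, and 1 a higher one, Tnfaip3. The call of Tnfaip3 was lost without any 1 of Control replicates 1 and 2 and HMGB1 replicates 1 and 3 of 1A. It was also lost without Control replicate 1 or HMGB1 replicate 1 of 1B. The summed level of the NF-kB genes in Control was 885.6, 907.7 and 934.9 CPM in 1A and 729.2, 720.1 and 709.5 CPM in 1B. With HMGB1 the protocols overlapped, at 4771, 4807 and 4707 CPM in 1A and 4630, 5162 and 4846 CPM in 1B. Of the antiviral interferon-stimulated genes, 30 of 33 had a lower response in 1A and 0 a higher one, with a median log2 difference of -2.32. Their summed level was 2089, 3185 and 5374 CPM in the Control libraries of 1A and 1088, 1168 and 878 CPM in those of 1B; with HMGB1 it was 27680, 32670 and 33250 CPM in 1A and 32840, 46740 and 38530 CPM in 1B. The 2 protocols lay further apart without HMGB1, in fold, than with it. The count was 20 of 33 without Control replicate 3 of 1A, with a median of -1.54, and 19 of 33 in a fit of the 12 libraries of both protocols. Of the guanylate-binding proteins and immunity GTPases 10 of 17 had a lower response in 1A. That count was 5 without Control replicate 3 of 1A, 5 without Control replicate 1 of 1B and 6 without its Control replicate 3, and it was 5 of 16 in the fit of the 12 libraries.

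Genes with the largest differences against 1B included Ereg, which had 0 counts without and lay at 44.2, 41.7 and 34.1 CPM with HMGB1 in 1A and at 0.0943, 0.0413 and 0.0508 CPM without and 0.437, 0.495 and 0.0832 CPM with HMGB1 in Protocol 1B. With 0 counts in a group, its fitted difference depends on the prior count. Gadd45a, a gene of growth arrest, moved in opposite directions, at 8.03, 7.5 and 5.65 CPM without and 17.1, 13.9 and 16.3 CPM with HMGB1 in Protocol 1A and 29.7, 19.6 and 18.2 CPM without and 4.45, 4.45 and 5.12 CPM with HMGB1 in Protocol 1B (log2 difference 3.41 ± 0.27 SE, adjusted p = 4.19e-10). Dgat2, an enzyme of triglyceride synthesis, was at 0.669, 1.47 and 1.36 CPM without and 14.7, 17.6 and 19.9 CPM with HMGB1 in Protocol 1A and 0.519, 0.537 and 0.864 CPM without and 1.02, 1.11 and 0.708 CPM with HMGB1 in Protocol 1B. Ptx3, a secreted pattern recognition protein, rose in both protocols, and was at 0.0372, 0.0867 and 0.0471 CPM without and 21.9, 25.3 and 23.4 CPM with HMGB1 in Protocol 1A and 0.283, 0.496 and 0.661 CPM without and 5.98, 5.26 and 13.1 CPM with HMGB1 in Protocol 1B. Fpr2, a formyl peptide receptor, was at 31.2, 40.2 and 49.1 CPM without and 297, 298 and 296 CPM with HMGB1 in Protocol 1A and 0.0471, 0.372 and 0.203 CPM without and 64.9, 53.9 and 49.3 CPM with HMGB1 in Protocol 1B (log2 difference -5.10 ± 0.596 SE, adjusted p = 8.05e-06). It was present in the Control libraries of 1A and near 0 in those of 1B, and its level with HMGB1 was higher in 1A although the response was smaller. Pilrb1 and Olr1, the latter the receptor of oxidized LDL, had the same pattern (log2 differences -5.90 and -5.79). Slfn4, an interferon-stimulated gene of myeloid cells, was at 7.48, 18.6 and 34 CPM without and 85.6, 176 and 152 CPM with HMGB1 in Protocol 1A and 0.0943, 0.248 and 0.0508 CPM without and 18.2, 34.6 and 25.7 CPM with HMGB1 in Protocol 1B. Its call was lost without Control replicate 1 or 3 of 1B and in a fit of the 12 libraries alone.

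**Figure D5:**
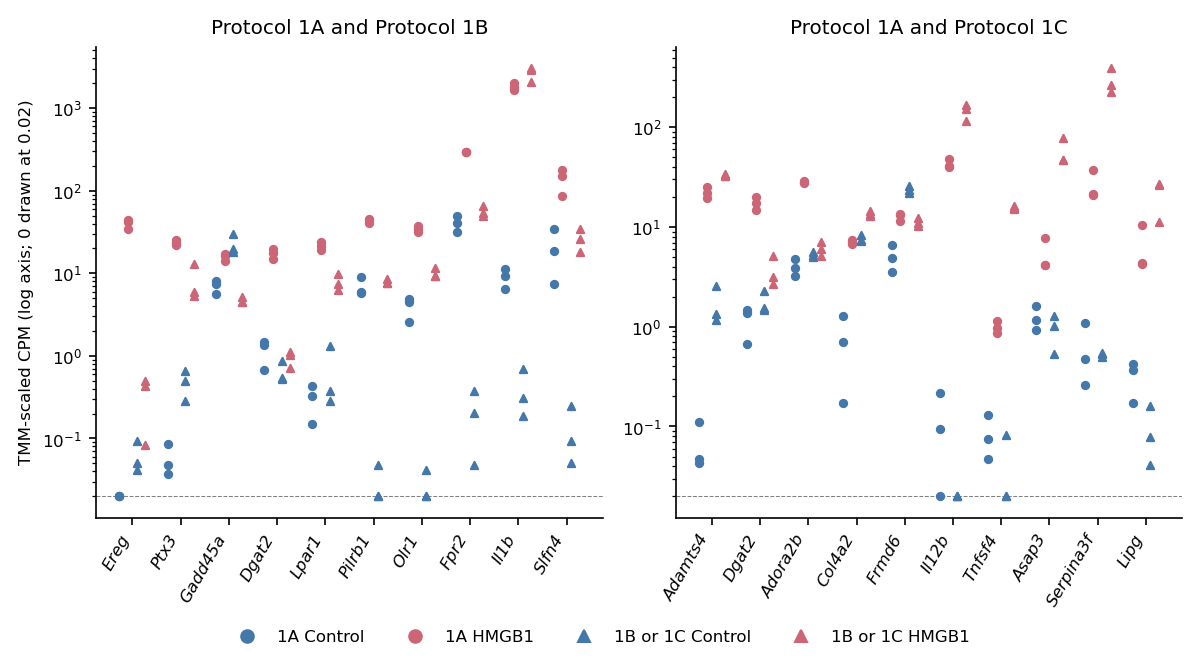
TMM-scaled CPM (log axis, values of 0 drawn at 0.02) per library of the genes with the largest differences in response between Protocols 1A and 1B (left) and 1A and 1C (right); blue is Control, red HMGB1, circles 1A and triangles the other protocol. Fpr2, Olr1 and Pilrb1 start well above 0 in the Control libraries of 1A and near 0 in those of 1B, and Adora2b rises in 1A and not in 1C.

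Against Protocol 1C, grown for 21 days with GM-CSF, the response was higher in 1A for 1551 of 18182 genes (8.53%) and lower for 993 (5.46%). The first count depended on the scaling and on a library, at 1032 with DESeq2 size factors and 993 without HMGB1 replicate 1 of 1A. Of the genes of ribosome biogenesis 19 of 31 had a higher response in 1A and 1 a lower one, with a median log2 difference of 0.58. On the TMM scale their summed level in 1A was 1477, 1466 and 1516 CPM without and 1885, 1715 and 1722 CPM with HMGB1. In 1C it was 1597, 1722 and 1748 CPM without and 1644, 1656 and 1615 CPM with HMGB1. As a share of all counts their level in 1A went the other way, from a mean of 0.182% to 0.159%. The count of genes with a higher response was 15 with DESeq2 size factors and 15 without HMGB1 replicate 1 of 1A. Of the death receptors, caspases and necroptosis genes 13 of 22 had a lower response in 1A and 2 a higher one, and their summed level with HMGB1 was 3023, 3216 and 3214 CPM in 1A and 4368, 4521 and 4839 CPM in 1C. Only 2 of the 33 antiviral interferon-stimulated genes had a lower response in 1A than in 1C, and 0 a higher one. Their summed level in Control was 2089, 3185 and 5374 CPM in 1A and 3964, 2195 and 5578 CPM in 1C. With HMGB1 it was 27680, 32670 and 33250 CPM in 1A and 61190, 67300 and 78270 CPM in 1C, without overlap.

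Adora2b passed the test in 1A and not in 1C, and the difference itself passed, at 4.76, 3.9 and 3.25 CPM without and 28.2, 27.6 and 29.2 CPM with HMGB1 in Protocol 1A and 5.28, 5.66 and 4.96 CPM without and 5.17, 7.12 and 6.04 CPM with HMGB1 in Protocol 1C (log2 difference 2.63 ± 0.289 SE, adjusted p = 3.42e-07). Dgat2 was at 2.29, 1.53 and 1.49 CPM without and 2.67, 5.13 and 3.12 CPM with HMGB1 in 1C (log2 difference 2.87), so that 1A was higher than either protocol. Frmd6, a gene of the Hippo pathway, rose in 1A and fell in 1C, from 6.58, 4.94 and 3.53 CPM without and 13.2, 13.4 and 11.4 CPM with HMGB1 in Protocol 1A and 23.7, 25.6 and 21.7 CPM without and 10.9, 10.3 and 12.4 CPM with HMGB1 in Protocol 1C. Adamts4 and Col4a2, a collagen chain, had larger responses in 1A from lower Control levels. With HMGB1 both were still lower in 1A. The means were 22.2 CPM in 1A and 33.1 CPM in 1C for Adamts4, and 7.1 and 13.7 CPM for Col4a2. Adamts4 was near 0 in the Control libraries of 1A, at most 0.112 CPM, so that its fold is uncertain. Lower in 1A was the response of Il12b, whose protein is shared by IL-12 and IL-23, at 40.9, 48.2 and 39.9 CPM with HMGB1 in 1A and 152, 168 and 114 CPM in 1C, where the Control libraries had 0 counts. This call was lost without Control replicate 2 of either protocol and in a fit of the 12 libraries alone. Tnfsf4, the costimulatory ligand OX40L, was at 0.0744, 0.13 and 0.0471 CPM without and 0.976, 0.876 and 1.14 CPM with HMGB1 in Protocol 1A and 0, 0 and 0.0827 CPM without and 15.3, 15.7 and 16.4 CPM with HMGB1 in Protocol 1C (log2 difference -5.35 ± 1.16 SE, adjusted p = 0.00155). Asap3, Serpina3f and Lipg, the last an endothelial lipase, had log2 differences of -3.75, -3.60 and -3.54. The call of Serpina3f was lost without any 1 of 8 of the 12 libraries, and that of Lipg in a fit of these 12 libraries alone.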

How the data were processed

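The authors aligned reads with HISAT2 2.0.5 and deposited raw counts per gene made with featureCounts 1.5.0-p3, 54532 genes in 30 libraries. Strand use and the genome build are not given in the sources used here. Libraries were grouped by the labels, and 0 columns of per-sample values were left unused. Here the counts of 6 libraries were filtered (filterByExpr), scaled by TMM and tested with the quasi-likelihood test of edgeR 4.0.16 (R 4.3.3). Differences between protocols were interactions in a fit of 30 libraries in 10 groups. P-values were adjusted by Benjamini-Hochberg over all genes tested. DESeq2 1.42.0, other filters, a replicate block and leaving out libraries were alternatives. The script was tested on simulated data. Named genes were the 10 largest changes in each direction among protein-coding genes with a group mean of at least 10 CPM, up to 4 passed, 2 opposed and 2 not passed members of each list, the 5 largest differences in each direction, noncoding genes by the same rule, and well-known members. The members and lists were chosen with earlier results of these data known. Depth was 16736203 to 22613880 counts a library. Replicates differed by more than counting error (chi-square of 7.8 to 19.9 per degree of freedom). Promoters came from RefSeq windows of GRCm38.p6. Some members of the lists are not reported here by name.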

Additional observations from a re-analysis of the deposited data

Results flagged for a closer look

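Whether the response to HMGB1 differed between protocols was tested as an interaction in the edgeR fit of 30 libraries, with Benjamini-Hochberg adjustment. The differences below are on the log2 scale, response in 1A minus response in the other protocol, and come from the 5 genes with the largest difference in each direction. Against 1B the response was larger in 1A for Ereg (10.55, with 0 counts in the Control libraries of 1A, so that the value depends on the prior count), Ptx3 (4.46), Gadd45a (3.41), Dgat2 (3.37) and Lpar1, a receptor for lysophosphatidic acid (2.52). It was smaller in 1A for Pilrb1 (-5.90), Olr1 (-5.79), Fpr2 (-5.10), Il1b (-4.99) and Slfn4 (-4.71). Il1b lay at 11.3, 9.32 and 6.54 CPM in the Control libraries of 1A and 0.189, 0.702 and 0.305 CPM in those of 1B, and with HMGB1 at 1805, 2028 and 1637 and 2049, 3031 and 2917 CPM.

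Against 1C the response was larger in 1A for Adamts4 (3.86), Dgat2 (2.87), Adora2b (2.63), Col4a2 (2.49) and Frmd6 (2.40). It was smaller for Il12b (-5.92, with 0 counts in the Control libraries of 1C, so that this value too depends on the prior count), Tnfsf4 (-5.35), Asap3 (-3.75), Serpina3f (-3.60) and Lipg (-3.54). The call of Serpina3f was lost when any 1 of 8 libraries was left out, and that of Il12b without Control replicate 2 of 1A or of 1C. The calls of Ereg and Slfn4 were lost without Control replicate 1 of 1B, and those of Lpar1 and Slfn4 without its Control replicate 3. In fits of only the 12 libraries of both protocols Il12b, Lipg and Slfn4 did not pass.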

How the results depend on the processing

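The counts of genes moved mainly with the scaling and with a fold threshold. At an absolute log2 fold change of at least 1, 1505 genes rose and 1757 fell. With total counts in place of TMM factors, an alternative chosen after seeing the data, 2008 rose and 7747 fell. That setting turned the sign of the log2 fold changes of Aldh1l1 (-0.10), Apoe (-0.33), C1qb (-0.23), Csf1r (-0.15), Ctsb (-0.28), Ctss (-0.34), Dusp1 (-0.29), Ly96 (-0.10), Pkm (-0.36), Ticam1 (-0.23), Tlr4 (-0.40) and Tyrobp (-0.42), all small; the shift follows from the scaling, whose factors differ between the groups. Leaving out a library in turn gave 3598 to 4070 rises and 3768 to 4120 falls. It gave 419 to 626 genes higher and 509 to 685 lower in 1A than in 1B, and 993 to 1580 higher and 733 to 1021 lower than in 1C, the count of 993 being without HMGB1 replicate 1 of 1A. With DESeq2 size factors 1032 genes were higher than in 1C, and by the DESeq2 Wald test 1010 were lower than in 1B. The cause was not tested. Whether same-numbered Control and HMGB1 libraries came from the same litter is not given in the sources used here. The correlations of deviations were 0.03, 0.09 and 0.11 between same-numbered libraries and -0.118 to 0.0595 between the others. Values this weak cannot decide whether the libraries were paired. With the replicate block 4088 genes rose and 4313 fell, and 978 were higher and 1054 lower in 1A than in 1B. Leaving out a library gave differences in the share of all counts, HMGB1 minus Control in percentage points, of 0.508 to 0.553 for CXC chemokines, 0.654 to 0.735 for CC chemokines, 2.29 to 2.54 for antiviral genes, 0.955 to 0.987 for mediator enzymes and -1.83 to -1.59 for disease-associated genes. Depth kept Il10 and Csf2 from being tested.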

Other observations

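Gene classes other than protein-coding genes also held members that rose or fell. Of 541 processed pseudogenes tested 105 rose and 28 fell, while of 253 lincRNA genes 38 rose and 77 fell and of 310 antisense genes 55 rose and 73 fell. None of these classes had larger shares than the 29.7% rises and 31.6% falls of all genes tested. Reads of a pseudogene can come from its parent gene, which these counts cannot tell apart. Mx2, an antiviral gene listed as a polymorphic pseudogene, lay at 7.12, 8.72 and 20.4 CPM without and 196, 298 and 261 CPM with HMGB1 (adjusted p = 0.00207, edgeR). Kcnq1ot1, an imprinted antisense RNA, lay at 20.6, 16.7 and 11.3 CPM without and 4.3, 8.71 and 5.97 CPM with HMGB1 (log2 fold change -1.35 ± 0.323 SE, adjusted p = 0.0113, edgeR). For Mx2 the lowest HMGB1 library was above the highest Control library.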
